A study of Mus musculus with 16 samples.

Results

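The genes described here are a set of 34 neuronal genes of the inner ear, followed in a mouse line made to misexpress the miR-183 cluster in cochlear supporting cells. They were chosen by name as genes of the neuronal cytoskeleton, of synaptic vesicles, and of ganglion neurons. A gene was measured by the probeset that the platform annotation pairs with its symbol alone, and by the one with the highest mean over all arrays where several did so. By that rule 32 of the 34 genes were measured, out of 19937 genes with such a probeset. *Vamp2*, a vesicle SNARE protein, and *Prrt2*, a presynaptic membrane protein, have only a probeset that carries several symbols and were left out.

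Total RNA was hybridized to Affymetrix MoGene 1.0 arrays, 16 in all, in 4 groups. The P5-OC groups held microdissected organ of Corti, the sensory epithelium of the cochlea, from WT (n = 5) and from Tg/Tg mice (n = 5) at postnatal day 5. The P18-cochlea groups held whole cochlea without the vestibular labyrinth, from WT (n = 3) and from Tg/Tg mice (n = 3) at postnatal day 18. Tg/Tg mice (Tg below) were homozygous for the 1MDW transgene, which carries *Mir183*, *Mir96* and *Mir182* behind a human GFAP promoter, and WT mice were littermates without it. Both genotypes share the FVB/NCrl background. Tg stands for 1 transgenic line, so for 1 founder and integration site, and the GFAP promoter can be active in glia as well as in supporting cells. By in situ hybridization, the study found miR-182 in Tg at P18 in supporting cells and also in spiral limbus and Schwann cells. By that method it found no clear difference between the genotypes at P5. Age and dissected tissue change together between P5-OC and P18-cochlea and cannot be told apart. Arrays were grouped by their sample names, because the separate age, tissue and genotype fields contradict those names on many arrays. Whether an array holds 1 animal or a pool is not stated in the sources used here, so p-values measure the spread between these RNA samples.

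Sound reaches the brain through the spiral ganglion, whose bipolar neurons send a peripheral process to the hair cells and a central axon into the auditory nerve. Neurofilaments and microtubules support these axons, vesicular glutamate transporters load the transmitter, and synaptotagmins, SNARE proteins and synapsins govern its release. The cell bodies lie outside the sensory epithelium, so an organ of Corti dissection takes mainly neuronal endings, with as much of the ganglion as stays attached, while a whole cochlea holds the ganglion.

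The mature microRNAs that the transgene adds are shown because they define the Tg groups. They are printed as RNA from RefSeq, build GRCm38.p6, with the seed (bases 2 to 8) in capitals; miR-183-5p differs from both others within the seed, and miR-96-5p and miR-182-5p share all but the last seed base.
mmu-miR-183-5p: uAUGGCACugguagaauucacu
mmu-miR-96-5p: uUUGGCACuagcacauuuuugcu
mmu-miR-182-5p: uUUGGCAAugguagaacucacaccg

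Promoter sequence, 250 bases before to 50 bases after a gene's start in RefSeq (GRCm38.p6), was at hand for 23 of the 34 genes, in 32 windows. Shown are those of *Syt1* and *Syt2*, the pair of calcium sensors that moved in opposite directions between the ages, and of *Syn1*, which holds both of the rarer motifs searched. Where a gene has several starts, the window of the start farthest upstream is shown. Capitals mark, on either strand, the GC box GGGCGG, the cyclic AMP response element TGACGTCA, and TTCAGCACC, the left part of RE1, the element bound by REST, a repressor of neuronal genes.
*Syt1*, chr10:109010926-109011225, minus strand: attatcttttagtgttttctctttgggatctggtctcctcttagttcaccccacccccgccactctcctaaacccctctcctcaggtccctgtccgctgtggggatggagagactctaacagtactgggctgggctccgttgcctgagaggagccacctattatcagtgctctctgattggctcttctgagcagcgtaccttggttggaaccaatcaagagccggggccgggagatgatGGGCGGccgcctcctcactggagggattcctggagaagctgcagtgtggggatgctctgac
*Syt2*, chr1:134646362-134646661, plus strand: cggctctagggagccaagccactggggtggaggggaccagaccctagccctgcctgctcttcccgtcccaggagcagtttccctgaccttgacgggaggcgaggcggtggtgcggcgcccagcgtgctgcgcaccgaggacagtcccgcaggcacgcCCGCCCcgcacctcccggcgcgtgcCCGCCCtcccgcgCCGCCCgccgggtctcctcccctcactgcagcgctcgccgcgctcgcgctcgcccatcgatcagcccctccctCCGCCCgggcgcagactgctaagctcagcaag
*Syn1*, chrX:20920869-20921168, minus strand: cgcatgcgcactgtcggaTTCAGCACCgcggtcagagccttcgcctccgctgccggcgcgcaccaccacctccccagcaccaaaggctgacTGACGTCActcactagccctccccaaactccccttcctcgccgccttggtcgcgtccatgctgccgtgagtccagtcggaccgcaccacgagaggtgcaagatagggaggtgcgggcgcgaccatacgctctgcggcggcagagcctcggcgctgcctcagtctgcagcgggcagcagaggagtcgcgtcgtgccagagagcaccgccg
The GC box lay in 19 of the 32 windows (59.4%) against 35.7% of all 32851 promoter windows. *Syt1* held it 11 bases before the start, and *Syt2* held 4 copies on the opposite strand. Among the 23 genes with a window, the cyclic AMP response element was found for *Syn1* and *Th* (1.79% of all windows). The RE1 part was found for *Syn1* alone among those 23 (0.371% of all windows). No motif spelled here overlaps another in these 3 windows, and a match is a description of letters only.

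The transgene check followed the sample names: the 3 probesets of the miR-183 cluster were between 9.91-fold and 17-fold higher in Tg at the 2 ages. The platform annotation used here and the study name the *Mir96* and *Mir182* probesets the other way round, so these are not told apart. Pearson correlations between arrays of the same age were 0.97 to 0.99, and no 2 arrays held identical values. The mean log2 signal of 3 Y-linked genes was above 8.6 on P5 WT replicates 2 to 5 and on P5 Tg replicate 1 and at most 4.06 on the other 5 P5 arrays, so at P5 this split ran largely along genotype, while all P18 arrays lay between 7.22 and 7.66. Hair cell markers were present in both tissues, with 10 or 11 of 12 above the array median at P5 and 8 or 9 at P18. At P18, markers of tissue outside the cochlea differed between the genotypes. The study reported all of the skeletal muscle markers and some of the granule cell markers as changed on these same arrays. Cerebellar and cochlear nucleus granule cell markers had a mean log2 level of 7.37 to 7.41 in WT against 6.85 to 6.89 in Tg, and skeletal muscle markers one of 6.26 to 6.31 in WT against 8.74 to 8.82 in Tg. Of the 32 neuronal genes, 23 to 31 were above the array median on each P5 array and 30 on each P18 array.

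The largest changes of the neuronal genes were between the 2 ages. In WT, 19 of 32 genes (59.4%) were higher in P18-cochlea than in P5-OC by limma at an adjusted p under 0.05, against 19.8% of all 34760 probesets, and 15 of them were at least 2-fold higher (46.9%, against 5.5% of all). Another 6 genes were lower (18.8%, against 30.2% of all), 5 of them at least 2-fold (against 11.5% of all). In Tg, on arrays not shared with WT, 22 genes were higher (68.8%, against 21.1% of all), 16 at least 2-fold (against 5.93%), and 6 lower (against 33% of all), 5 at least 2-fold (against 10.8%). The median log2 change of the 32 genes was 0.70 in WT and 1.07 in Tg, where the median over all probesets was -0.06 and -0.11. With each array centred on its median the background turned, with 34.3% of all probesets higher and 21.3% lower in WT and 34.3% and 19.7% in Tg, while 24 neuronal genes were higher in WT and 25 in Tg, and 6 lower in each. After a second quantile normalization 32.3% of all probesets were higher and 25.3% lower in WT, 28.6% and 24.1% in Tg, with 20 and 22 neuronal genes higher and 6 lower in each. Altogether 24 genes passed in both genotypes, all 24 in the same direction. The share of all probesets that did so was not counted. Both contrasts hold the same change of age and tissue, so this agreement is not a trait particular to these genes. In bulk tissue, more cells of a type and more RNA per cell cannot be told apart.

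**Figure D1:**
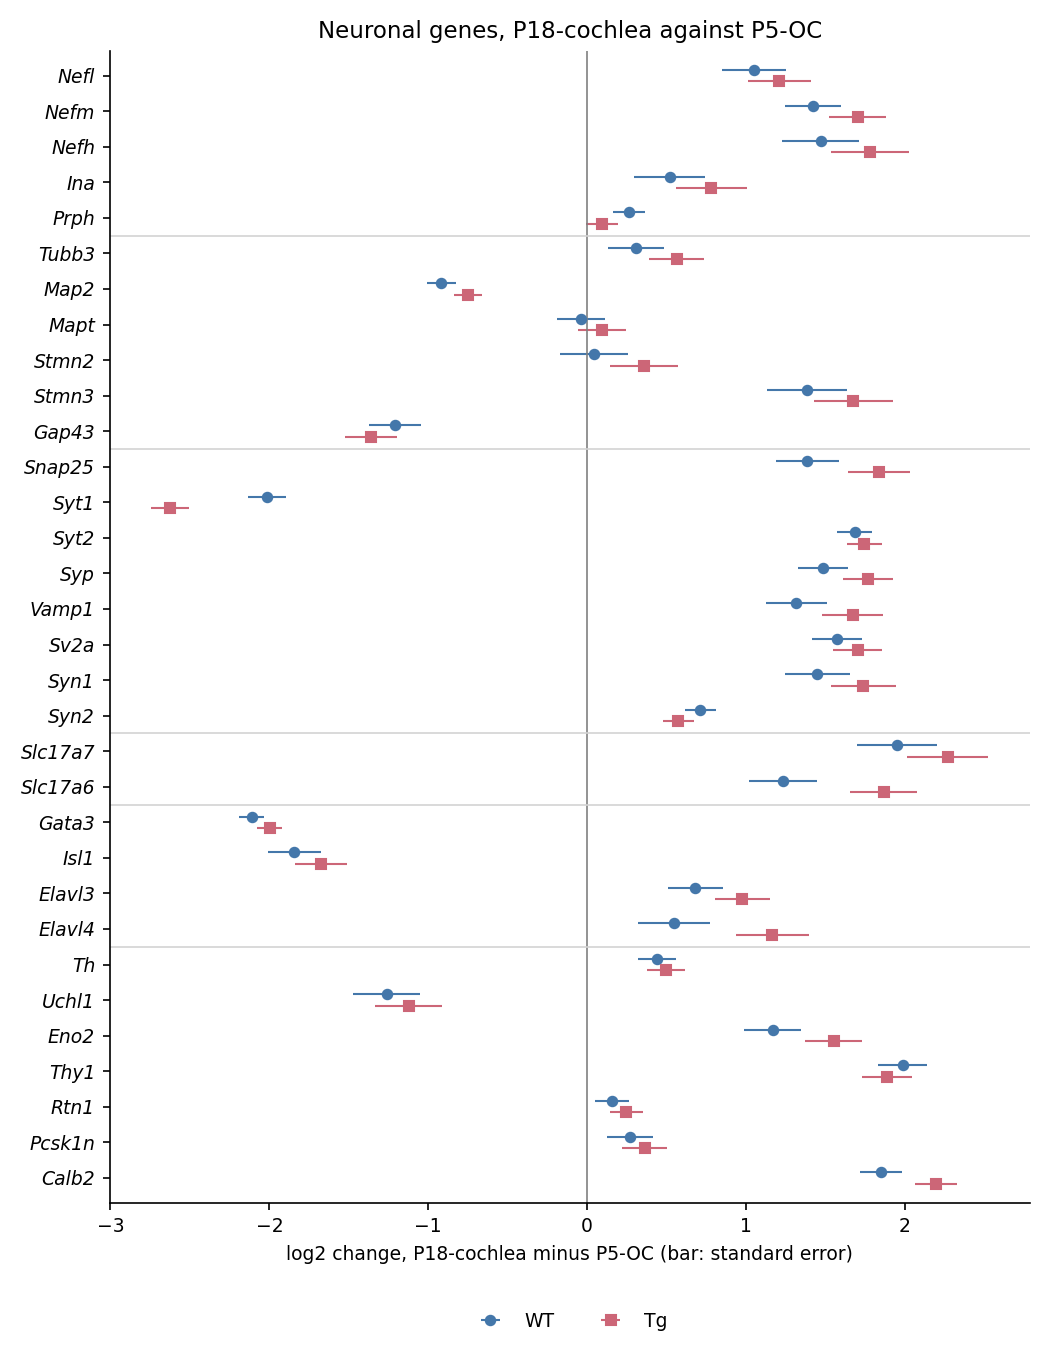
Log2 change between P18-cochlea and P5-OC (x axis) for each of the 32 measured neuronal genes (y axis) in WT (circles, n = 5 and n = 3 arrays) and Tg (squares, n = 5 and n = 3), with bars for the standard error; grey lines separate the 6 functional classes. *Gata3*, *Syt1*, *Isl1*, *Uchl1*, *Gap43* and *Map2* lie left of 0 in both genotypes, while *Thy1*, *Slc17a7* and *Calb2* lie farthest to the right.

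Neurofilament genes were among those that rose. *Nefh*, the heavy chain, which accumulates in large myelinated axons, had log2 signals of 9.17, 9.46, 8.73, 9.70 and 9.70 on the 5 P5 WT arrays and of 10.75, 10.95 and 10.78 on the 3 P18 WT arrays. All P18 values were above all P5 values. The rise was 1.47 ± 0.24 (log2, SE; adjusted p = 1e-04) in WT and 1.78 ± 0.24 (adjusted p = 1.6e-05) in Tg. *Nefm*, the medium chain, rose by 1.42 ± 0.18 (adjusted p = 5.7e-06) in WT and 1.70 ± 0.18 (adjusted p = 8.6e-07) in Tg, and *Nefl*, the light chain, by 1.05 ± 0.20 in WT and 1.21 ± 0.20 in Tg. *Ina*, alpha-internexin, an intermediate filament of early neurons, rose by 0.78 ± 0.23 in Tg (adjusted p = 0.0083), and its change of 0.52 ± 0.23 in WT did not pass (adjusted p = 0.068). A second *Ina* probeset rose in both genotypes (0.55 ± 0.16 in WT, adjusted p = 0.0075, and 0.75 ± 0.16 in Tg). *Prph*, peripherin, which marks type II spiral ganglion neurons, lay at a log2 level below 6 on every array. Its change of 0.26 ± 0.10 in WT passed narrowly (adjusted p = 0.04) and did not pass in Tg (0.09 ± 0.10, adjusted p = 0.46).

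The microtubule and growth genes went different ways. *Gap43*, a growth cone protein of extending axons, had log2 signals of 6.53, 6.59, 6.87, 6.59 and 7.04 on the P5 WT arrays and of 5.69, 5.56 and 5.29 on the P18 WT arrays. It fell by 1.21 ± 0.16 (SE, log2; adjusted p = 1.3e-05) in WT, and in Tg its change was -1.36 ± 0.16 (adjusted p = 4.1e-06). *Map2*, a dendritic microtubule protein, also fell, by 0.92 ± 0.09 (adjusted p = 4.1e-07) in WT and by 0.75 ± 0.09 (adjusted p = 4e-06) in Tg. The stathmins, which destabilize microtubules, differed from each other: *Stmn3* rose by 1.38 ± 0.25 in WT (adjusted p = 0.00022) and 1.68 ± 0.25 in Tg, whereas *Stmn2* had changes of 0.04 ± 0.21 and 0.36 ± 0.21 that did not pass (adjusted p = 0.89 and 0.17). A second *Stmn3* probeset, with group means of 3.97 to 4.13, did not pass in either genotype (-0.16 ± 0.10 and -0.08 ± 0.10). *Tubb3*, the neuronal beta-tubulin much used to stain the spiral ganglion, rose in Tg (0.56 ± 0.18, adjusted p = 0.013), and its change in WT, 0.31 ± 0.18, did not pass (adjusted p = 0.16). *Mapt*, the axonal protein tau, did not pass in either genotype (-0.04 ± 0.15 and 0.09 ± 0.15).

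The synaptic vesicle genes gave the clearest contrast within the set. *Syt1*, the calcium sensor of fast release in forebrain synapses, had log2 signals of 9.95, 10.02, 10.30, 10.31 and 10.31 on the P5 WT arrays and of 8.18, 8.20 and 8.12 on the P18 WT arrays. *Syt2*, the calcium sensor of fast hindbrain and auditory synapses, had 6.67, 6.90, 6.60, 6.91 and 6.91 at P5 and 8.40, 8.50 and 8.55 at P18 in WT. The ages did not overlap for either gene, and the directions were opposite. *Syt1* was 4.04-fold lower at P18 in WT (log2 -2.01 ± 0.12, adjusted p = 1.2e-09) and 6.16-fold lower in Tg (-2.62 ± 0.12, adjusted p = 7.5e-11). *Syt2* was 3.22-fold higher in WT (1.68 ± 0.11, adjusted p = 3.6e-09) and 3.35-fold higher in Tg (1.75 ± 0.11, adjusted p = 2.6e-09). Levels of these genes cannot be set against each other, since each comes from its own probeset. Hair cell markers fell between these tissues, as given below, and the part of hair cells in these changes was not tested.

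The other 6 vesicle and fusion genes all rose in both genotypes. *Sv2a*, a vesicle glycoprotein, rose by 1.58 ± 0.16 in WT and 1.70 ± 0.16 in Tg, and *Syp*, synaptophysin, by 1.48 ± 0.16 and 1.77 ± 0.16. *Snap25*, a SNARE protein of the presynaptic membrane, had log2 signals of 10.49, 10.28, 10.13, 10.87 and 10.90 on the P5 WT arrays and of 11.88, 11.96 and 11.92 on the P18 WT arrays. Its rise was 1.39 ± 0.20 (adjusted p = 2.2e-05) in WT and 1.84 ± 0.20 (adjusted p = 1.1e-06) in Tg. *Vamp1*, the vesicle SNARE of hindbrain and motor synapses, rose by 1.32 ± 0.19 and 1.67 ± 0.19. The synapsins, which tether vesicles, rose unequally, *Syn1* by 1.45 ± 0.21 and 1.74 ± 0.21 and *Syn2* by 0.71 ± 0.10 and 0.57 ± 0.10.

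Both vesicular glutamate transporter genes rose. *Slc17a7* (VGLUT1), the main transporter of mature spiral ganglion neurons, had log2 signals of 7.59, 7.64, 6.95, 7.88 and 7.84 on the P5 WT arrays and of 9.55, 9.49 and 9.55 on the P18 WT arrays. It was 3.87-fold higher in WT (1.95 ± 0.25, adjusted p = 9e-06) and 4.82-fold higher in Tg (2.27 ± 0.25, adjusted p = 1.9e-06). *Slc17a6* (VGLUT2) was 2.35-fold higher in WT (1.23 ± 0.21, adjusted p = 0.00014) and 3.65-fold higher in Tg (1.87 ± 0.21, adjusted p = 2.1e-06).

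The 2 transcription factors fell, unlike most of the set. *Gata3*, required for spiral ganglion and prosensory development, had log2 signals of 11.16, 11.28, 11.28, 11.37 and 11.35 on the P5 WT arrays and of 9.19, 9.17 and 9.16 on the P18 WT arrays, a change of -2.11 ± 0.08 (4.32-fold lower, adjusted p = 5.9e-12). In Tg it was 3.99-fold lower (-2.00 ± 0.08, adjusted p = 1.3e-11). *Isl1*, a LIM homeodomain factor of sensory neurons and of the prosensory epithelium, was 3.59-fold lower in WT (-1.84 ± 0.16, adjusted p = 1.5e-07) and 3.19-fold lower in Tg (-1.68 ± 0.16, adjusted p = 4.6e-07). *Gata3* and *Isl1* are also expressed outside neurons in the sensory epithelium, and hair cell markers were lower in P18-cochlea as well. Of 12 such markers, 9 fell in each genotype and 1 rose, with a median of -0.77 in WT and -0.80 in Tg. Of all probesets, 30.2% fell and 19.8% rose in WT, and 33% fell and 21.1% rose in Tg. The part of the dissected tissue in these changes was not tested. The neuronal RNA-binding proteins rose, *Elavl3* by 0.68 ± 0.17 in WT (adjusted p = 0.0038) and 0.98 ± 0.17 in Tg. *Elavl4* rose by 1.17 ± 0.23 in Tg (adjusted p = 0.00046), and its change of 0.55 ± 0.23 in WT did not pass (adjusted p = 0.058).

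Among the enzymes, surface and calcium-binding genes, *Thy1*, a glycoprotein of the axonal surface, rose 3.96-fold in WT (1.99 ± 0.16, adjusted p = 3.5e-08) and 3.70-fold in Tg (1.89 ± 0.16, adjusted p = 6.8e-08). *Calb2*, calretinin, a calcium buffer that marks a class of type I spiral ganglion neurons, had log2 signals of 10.01, 10.27, 9.85, 10.14 and 10.22 on the P5 WT arrays and of 11.91, 11.98 and 11.95 on the P18 WT arrays. It rose by 1.85 ± 0.13 (adjusted p = 1.1e-08) in WT and 2.20 ± 0.13 (adjusted p = 1.7e-09) in Tg. *Eno2*, neuronal enolase, rose by 1.17 ± 0.18 and 1.55 ± 0.18, and *Th*, tyrosine hydroxylase, by 0.44 ± 0.12 and 0.50 ± 0.12. *Th* belongs also to sympathetic neurons. Of 7 sympathetic neuron markers, *Th* included, 4 rose and 1 fell in WT, where 19.8% of all probesets rose and 30.2% fell. In Tg 1 rose and 1 fell, where 21.1% and 33% of all did. At most 2 of the 7 were above the array median on any array, and their part in the change was not tested. *Uchl1*, a neuronal ubiquitin hydrolase, fell by 1.26 ± 0.21 in WT (adjusted p = 0.00011) and by 1.12 ± 0.21 in Tg (adjusted p = 0.00033). *Pcsk1n*, a prohormone convertase inhibitor, passed in Tg (0.36 ± 0.14, adjusted p = 0.043) and not in WT (0.27 ± 0.14, adjusted p = 0.13), and *Rtn1*, a reticulon of the endoplasmic reticulum, passed in neither (0.16 ± 0.11 and 0.25 ± 0.11).

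**Figure D2:**
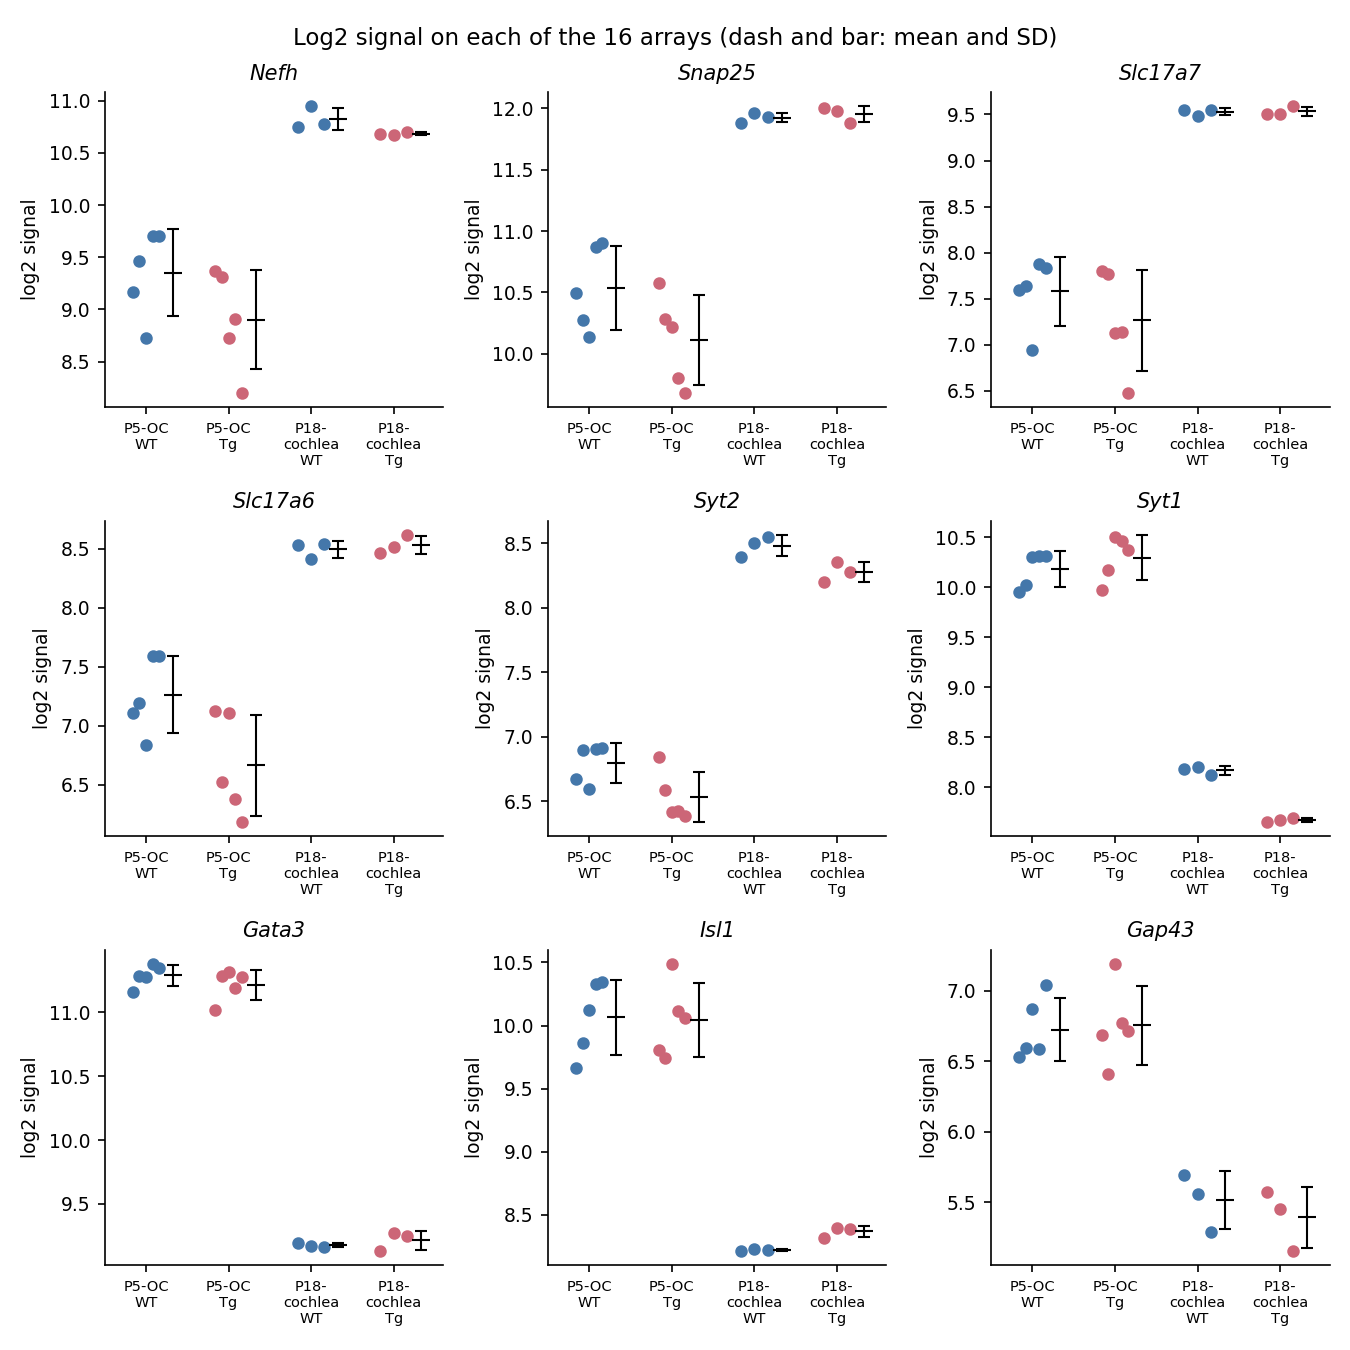
Log2 signal (y axis) of 9 neuronal genes on each array of the 4 groups (x axis; circles are arrays, blue WT and red Tg; the dash and bar beside them are the mean and SD of n = 5 P5-OC or n = 3 P18-cochlea arrays). *Nefh*, *Snap25*, *Slc17a7*, *Slc17a6* and *Syt2* lie higher at P18, and *Syt1*, *Gata3*, *Isl1* and *Gap43* lower, with no overlap between ages in either genotype.

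Of 12 granule cell markers, 10 were higher at P18 in WT, where 19.8% of all probesets were. *Calb2*, itself one of the 32 neuronal genes, is among those 10. In Tg 5 were higher and 3 lower, where 21.1% and 33% of all probesets were. The median change of the 12 markers was 0.71 in WT and 0.02 in Tg. *Calb2* and *Neurod1* stand both in this list and among the spiral ganglion neuron markers. The part of granule cell or hair cell RNA in the values of the neuronal genes was not tested.

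At P5 no neuronal gene differed between Tg and WT by limma at an adjusted p under 0.05 (0 of 32, against 0.61% of all probesets). At an unadjusted p under 0.05, 14 of 32 genes (43.8%) passed, against 16.4% of all probesets. All 14 were lower in Tg, against 9.09% of all probesets that were lower at that level. The mean was lower in Tg for 29 of 32 genes (90.6%, against 53.3% of all), and the median log2 change was -0.33, against -0.01 over all probesets. In none of the 32 genes were the P5 groups free of overlap (1.67% of all probesets were).

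**Figure D3:**
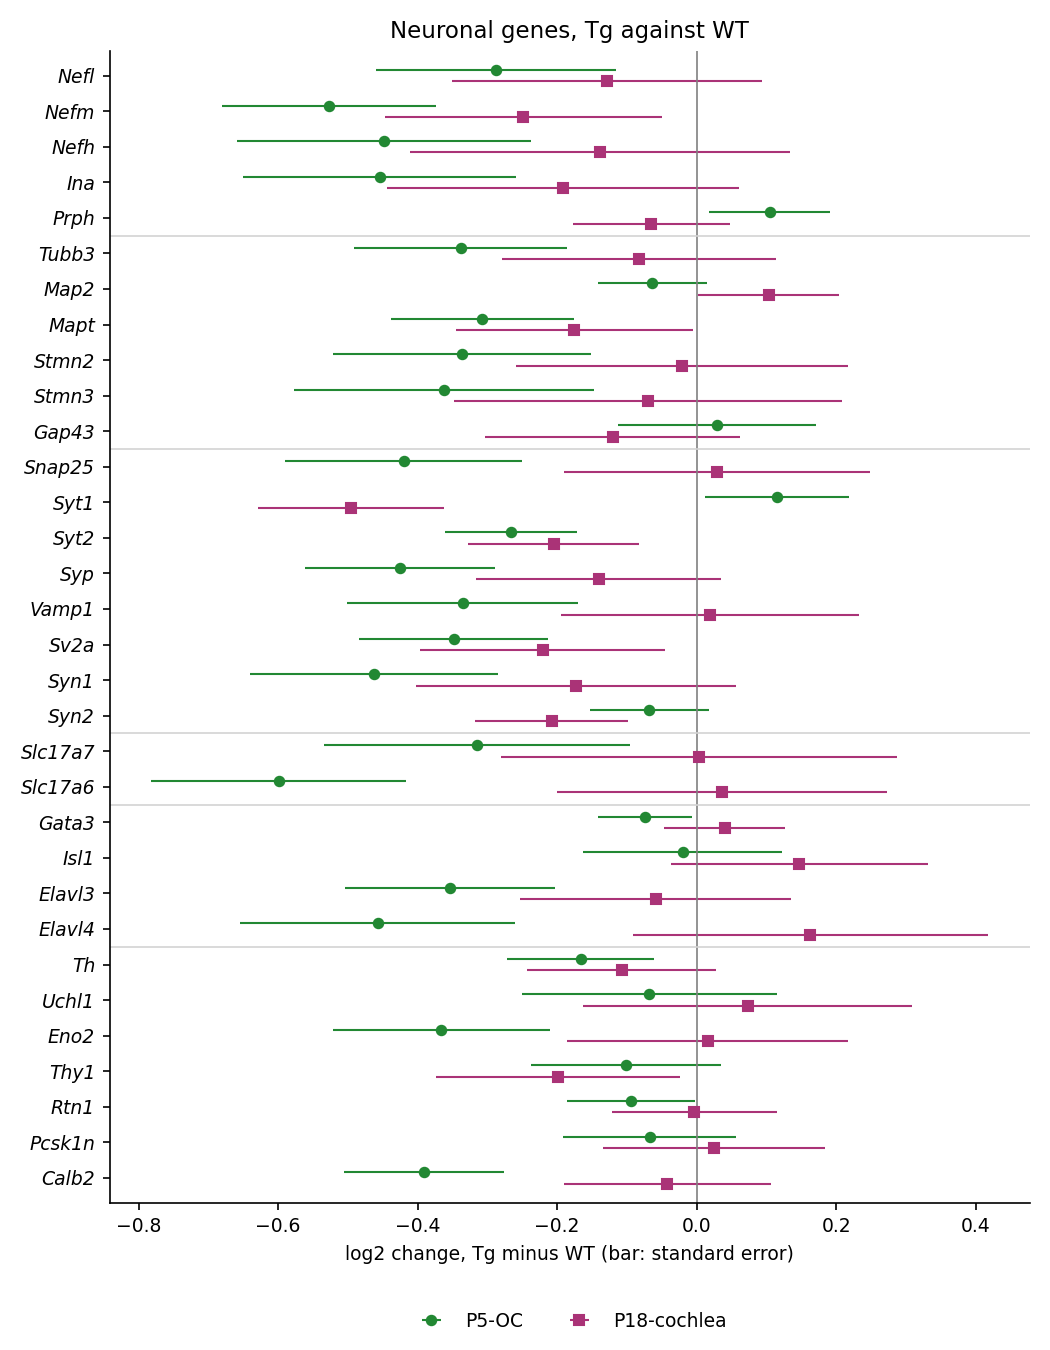
Log2 change between Tg and WT (x axis) for each of the 32 neuronal genes (y axis) in P5-OC (circles, n = 5 arrays per genotype) and P18-cochlea (squares, n = 3 per genotype), with bars for the standard error; grey lines separate the 6 functional classes. At P5, 29 genes lie left of 0 with a median of -0.33, at P18 21 genes with a median of -0.07, and no gene passed at an adjusted p under 0.05 at either age.

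*Slc17a6* had the largest difference at P5. Its log2 signals were 7.11, 7.19, 6.83, 7.59 and 7.59 on the WT arrays and 7.13, 6.52, 7.11, 6.38 and 6.18 on the Tg arrays. The 3 lowest arrays were Tg, the 2 highest were WT replicates 4 and 5, and the others overlapped. The change was -0.60 ± 0.18 (1.51-fold lower, adjusted p = 0.17), and that of *Slc17a7* was -0.31 ± 0.22 (adjusted p = 0.47).

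*Nefm* had log2 signals of 8.20, 8.78, 8.31, 8.83 and 8.89 in WT and of 8.47, 7.83, 8.36, 7.91 and 7.80 in Tg at P5. Its change was -0.53 ± 0.15 (adjusted p = 0.16). WT replicates 2, 4 and 5 were above every Tg array. *Calb2* had 10.01, 10.27, 9.85, 10.14 and 10.22 in WT and 10.16, 9.72, 9.65, 9.53 and 9.46 in Tg, where Tg replicate 1 alone reached into the WT range, and a change of -0.39 ± 0.11 (adjusted p = 0.16). For *Syp* the change was -0.42 ± 0.14 (adjusted p = 0.19), with WT replicates 4 and 5 at 8.22 and 8.28 and Tg replicate 5 lowest at 7.14. The other genes at an unadjusted p under 0.05 were *Ina* (-0.45), *Tubb3* (-0.34), *Mapt* (-0.31), *Snap25* (-0.42), *Syt2* (-0.27), *Sv2a* (-0.35), *Syn1* (-0.46), *Elavl3* (-0.35), *Elavl4* (-0.46) and *Eno2* (-0.37), with standard errors of 0.09 to 0.20. The second *Ina* probeset had a smaller change at P5 (-0.16 ± 0.13, unadjusted p = 0.252 by limma). The genes with a higher mean in Tg were *Syt1* (0.11 ± 0.10), *Prph* (0.10 ± 0.09) and *Gap43* (0.03 ± 0.14). By class, the median change was -0.45 for the intermediate filament genes, -0.34 for the vesicle and fusion genes, and -0.10 for the enzymes and surface genes.

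The lower P5 values rested unevenly on the arrays. WT replicates 4 and 5 were the 2 highest of the 10 P5 arrays for 24 of 32 genes, and Tg replicate 5 was the lowest for 18. The median deviation of the 32 genes from their P5 means was 0.38 and 0.41 on WT replicates 4 and 5 and -0.44 on Tg replicate 5, and lay between -0.21 and 0.15 on the other 7 arrays. Within replicates 1 and 2 of both genotypes the median change was -0.01, with 18 of 32 genes lower in Tg. Within replicates 3 to 5 it was -0.51, with 29 lower, and *Calb2* passed (-0.52, adjusted p = 0.041; 0.693% of all probesets passed). Leaving out Tg replicate 1 likewise made *Calb2* pass (-0.50, adjusted p = 0.014; 0.48% of all passed). Without Tg replicate 3, *Nefm* and *Slc17a6* passed (adjusted p = 0.036 and 0.031), 2 of 32 genes where 8.36% of all probesets passed. Without WT replicate 1, *Nefm* passed (adjusted p = 0.049), where 1.71% of all did. When each array's Y-linked signal entered the fit as a covariate, the median change was -0.15, and 1 of 32 genes was at an unadjusted p under 0.05, against 6.7% of all probesets. Among the P5 arrays with low Y-linked signal (1 WT, 4 Tg) the median change was -0.23, and among those with high signal (4 WT, 1 Tg) it was -0.08; this split was chosen after seeing the data. The part of sex in these differences was not tested beyond these values.

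**Figure D4:**
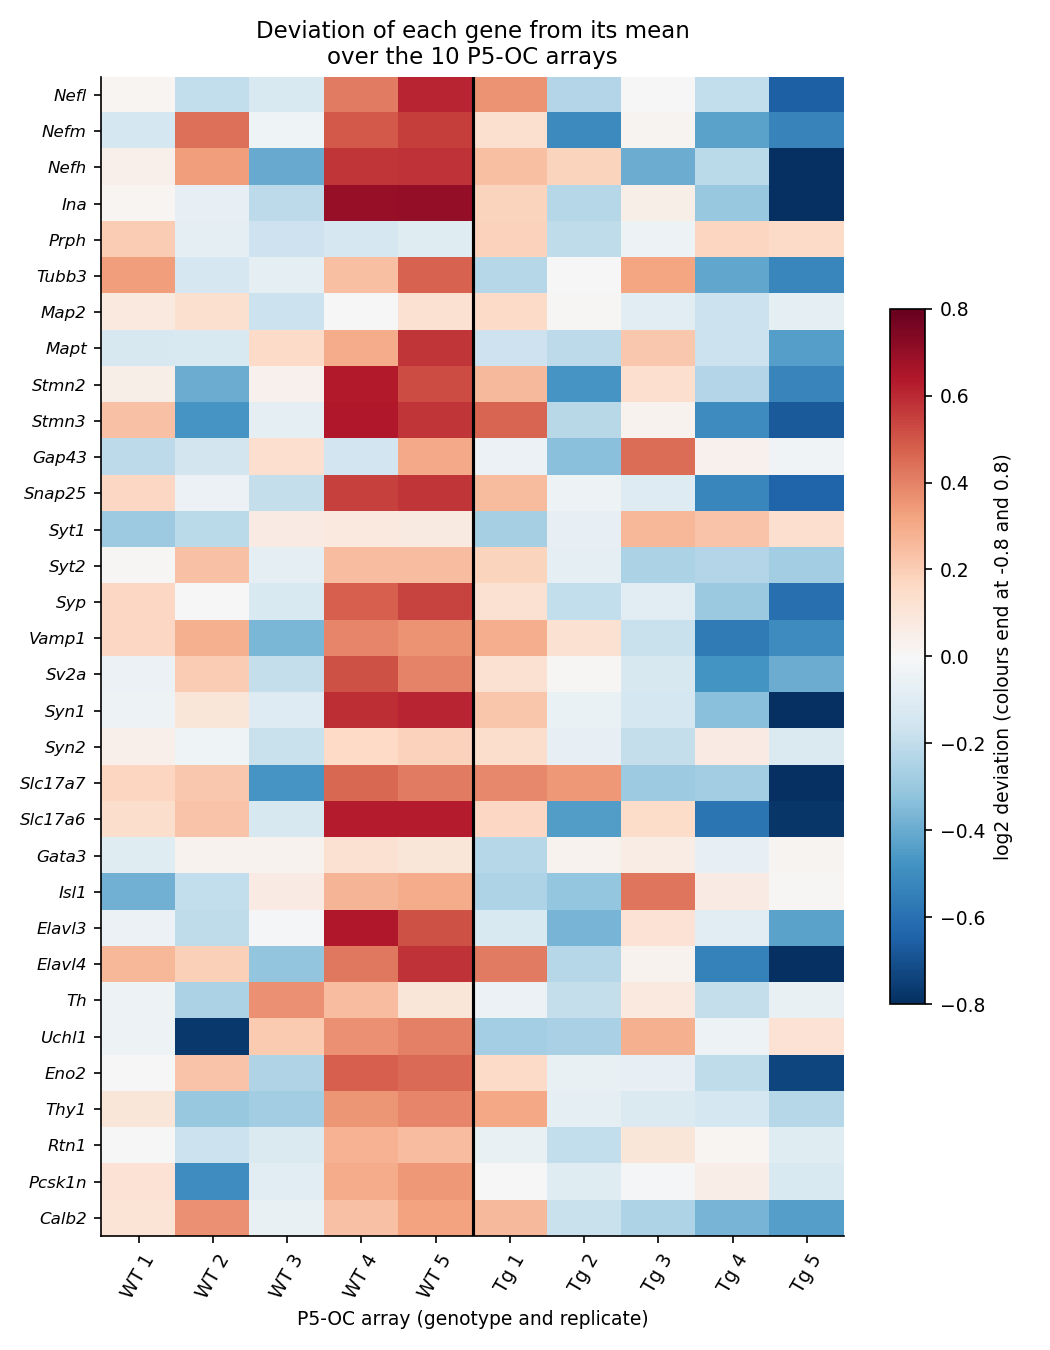
Deviation of each of the 32 neuronal genes (rows) from its mean over the 10 P5-OC arrays (columns, 5 WT left of the line and 5 Tg right of it), as log2 on a colour scale that ends at -0.8 and 0.8. WT replicates 4 and 5 are red for most genes and Tg replicate 5 is blue for most. *Syt1*, *Prph*, *Gap43*, *Gata3* and *Uchl1* are among the genes that depart from that pattern on some of these arrays.

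Myelin and Schwann cell markers, which come from the glia that wrap these neurons, differed at P5 in another way. Of 15 measured, 14 were lower in Tg at an adjusted p under 0.05, with a median of -1.51, and the median deviation was 0.56 to 0.92 on the WT arrays and -1.03 to -0.48 on the Tg arrays, with no overlap. *Sox10*, a transcription factor on this list, had a change of -0.14 that did not pass, and the number of Schwann cells was not measured. Among the WT arrays, replicates 4 and 5, the highest for the neuronal genes, had the lowest median deviation of the myelin markers (0.56 and 0.61). This order depends on the measure. By the mean log2 level of the same 15 genes, WT replicates 1 and 3 were lowest (9.60 and 9.62), and replicates 4 and 5 lay at 9.64 and 9.65. Among the Tg arrays replicates 4 and 5 were the lowest for both lists. The hair cell markers had a median change of -0.03 and the granule cell markers one of 0.08, with no gene of either list passing. Whether the neuronal and myelin values share a source was not tested.

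**Figure D5:**
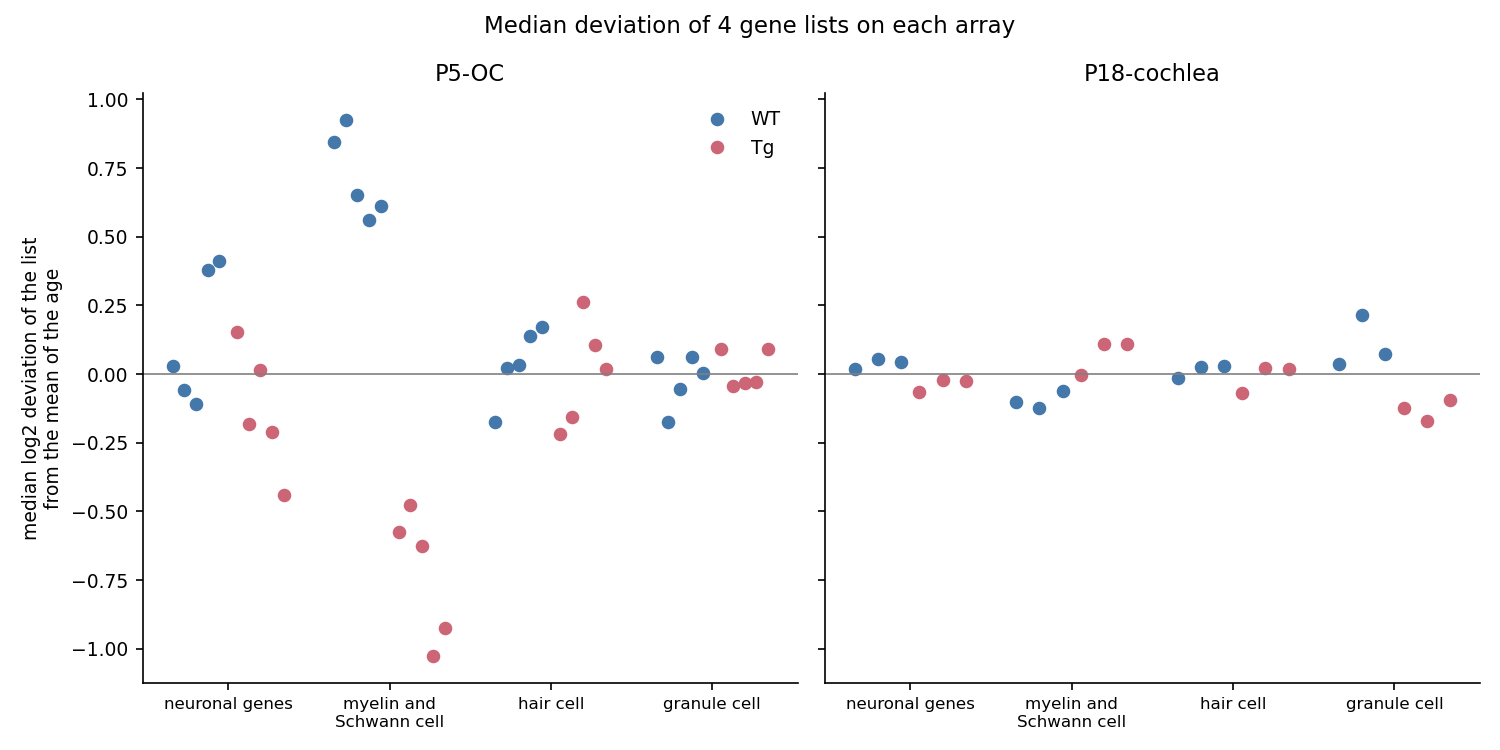
Median log2 deviation from the mean of the age (y axis) of the 32 neuronal genes and of 3 marker lists (x axis) on each array, blue WT and red Tg, for P5-OC (left, n = 5 per genotype) and P18-cochlea (right, n = 3 per genotype). At P5 the myelin markers separate the genotypes, while the neuronal genes overlap, with WT replicates 4 and 5 at 0.38 and 0.41 and Tg replicate 5 at -0.44.

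At P18 no neuronal gene passed at an adjusted p under 0.05 by limma (0 of 32, against 0.443% of all probesets), and 1, *Syt1*, passed unadjusted (3.12%, against 8.77% of all). The mean was lower in Tg for 21 of 32 genes (65.6%, against 55.4% of all), with a median of -0.07, against -0.02 over all probesets. The P18 groups did not overlap for 14 genes (43.8%, against 27.6% of all). Of these, 12 were lower in Tg (*Nefl*, *Nefm*, *Nefh*, *Ina*, *Mapt*, *Syt1*, *Syt2*, *Syp*, *Sv2a*, *Syn1*, *Syn2* and *Thy1*) and 2 higher (*Isl1* and *Elavl4*). With the ages fitted separately, 12 of 32 genes passed unadjusted at P18 (against 20.3% of all probesets). The second *Ina* probeset overlapped between the groups (0.04 ± 0.17). Besides *Syt1*, the changes of the 14 genes without overlap lay between -0.25 for *Nefm* and 0.16 for *Elavl4*.

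*Syt1* had log2 signals of 8.18, 8.20 and 8.12 on the P18 WT arrays and of 7.65, 7.68 and 7.69 on the P18 Tg arrays. Every Tg array was below every WT array. The change was -0.49 ± 0.13 (1.41-fold lower, adjusted p = 0.17) with 1 spread estimated over all 4 groups. By limma, *Syt1* passed when the ages were fitted separately (adjusted p = 0.021, where 1.37% of all probesets passed) and with array weights (adjusted p = 0.0041, 6.27% of all). It also passed with the P5 replicate set as a covariate (adjusted p = 0.0025, 0.642% of all) and with a replicate block (adjusted p = 0.044, 0.273% of all). It did not pass in the other alternatives, among them median centring, a second quantile normalization and the Y-linked covariate, or with any 1 array left out. *Syt2* had log2 signals of 8.40, 8.50 and 8.55 in WT and of 8.20, 8.36 and 8.28 in Tg, also without overlap, and a change of -0.20 ± 0.12 (adjusted p = 0.71). *Syn2* had a change of -0.21 ± 0.11 (adjusted p = 0.64) and *Sv2a* one of -0.22 ± 0.17 (adjusted p = 0.82). The glutamate transporters had changes of 0.00 ± 0.28 for *Slc17a7* and 0.04 ± 0.24 for *Slc17a6*.

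Granule cell markers were, as given above for their levels, lower in Tg for 5 of 12, with changes of -1.87 for *Gabra6* and -1.82 for *Neurod1*, and all 10 skeletal muscle markers were higher, with a median of 2.36. Of the 15 myelin markers, 2 were higher in Tg and none lower. *Syt1* is expressed widely in brain neurons, and the part of granule cell and muscle RNA in the P18 values of the neuronal genes was not tested.

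The genotype effects at the 2 ages were compared directly. No neuronal gene passed at an adjusted p under 0.05 by limma (0 of 32, against 0.596% of all probesets), and 2, *Syt1* and *Slc17a6*, passed unadjusted (6.25%, against 14.3% of all). *Syt1* had effects of -0.49 at P18 and 0.11 at P5, a difference of -0.61 ± 0.17 (adjusted p = 0.14). This difference passed with array weights (adjusted p = 0.037, where 9.3% of all probesets passed) and with the P5 replicate set as a covariate (adjusted p = 0.0025, 1.04% of all). It also passed within P5 replicates 3 to 5 (adjusted p = 0.0066, 0.791% of all) and with a replicate block (adjusted p = 0.039, 0.409% of all). It did not pass in the other alternatives or with any 1 array left out. *Slc17a6* had a difference of 0.64 ± 0.30 in the other direction (adjusted p = 0.35). The median difference over the 32 genes was 0.21, against 0.00 over all probesets, and turned to -0.080 within P5 replicates 1 and 2 and to -0.037 within the P5 arrays of high Y-linked signal.

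A further 82 neuronal genes, of which 75 were measured, were listed for comparison. Between the ages, 36 rose and 16 fell in WT, where 19.8% of all probesets rose and 30.2% fell. In Tg 42 rose and 14 fell, where 21.1% and 33% of all did. *Tubb2b*, a beta-tubulin of growing neurons, was 6.63-fold lower at P18 in WT, *Chgb*, a secretory granule protein, was 3.35-fold higher, and *Tuba4a*, an alpha-tubulin of mature axons, was 2.69-fold higher. At P5, 63 of the 75 had a lower mean in Tg (53.3% of all probesets had), and the median was -0.18, against -0.01 over all. Where 0.61% of all probesets passed at P5 by limma at an adjusted p under 0.05, 5 of the 75 were lower in Tg and none higher. They were *Map6*, which stabilizes microtubules (-0.53 ± 0.08, adjusted p = 0.0033), *Syn3*, a synapsin (-0.60 ± 0.10, adjusted p = 0.0058), *Sv2c*, a vesicle glycoprotein (-0.60 ± 0.12, adjusted p = 0.027), *Kif1a*, a motor of vesicle precursors (-0.46 ± 0.10, adjusted p = 0.04), and *Camk2b*, a calcium-dependent kinase (-0.35 ± 0.08, adjusted p = 0.049). None of the 5 passed when the ages were fitted separately (adjusted p = 0.05 for *Map6*, 0.061 for *Syn3*, 0.19 for *Sv2c*, 0.24 for *Kif1a* and 0.3 for *Camk2b*) or with Y-linked signal in the fit (adjusted p = 0.10 to 0.50). After a second quantile normalization *Kif1a* and *Camk2b* did not pass (adjusted p = 0.051 and 0.078). *Kif1a* stopped passing without any 1 array other than P5 Tg replicate 3 and P5 WT replicate 1 (adjusted p = 0.054 to 0.13), *Camk2b* without any 1 array other than P5 Tg replicate 3 and P5 WT replicate 3 (adjusted p = 0.05 to 0.15), and *Sv2c* without P5 Tg replicate 4 or 5 or P5 WT replicate 2, 4 or 5 (adjusted p = 0.064 to 0.096). *Sv2c* and *Syn3* were picked out from these same arrays by the study, so their place here is not independent evidence. At P18 none of the 75 passed, where 0.443% of all probesets did. At an unadjusted p under 0.05 by limma, 5 were lower and none higher, where 8.77% of all probesets passed in either direction. *Unc13a*, a vesicle priming factor, had the smallest adjusted p (-0.35 ± 0.09, adjusted p = 0.13). The 22 measured spiral ganglion neuron markers, which include *Neurod1*, had none passing at P5, with a median change of -0.14, and only *Neurod1* lower at P18.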

How the data were processed

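Total RNA from 16 samples was hybridized to Affymetrix MoGene 1.0 arrays. The values deposited by the authors are log2 signals of 34760 probesets, 1 column per sample; background correction and normalization are not given in the sources used here, and limma is named in the submitters' processing notes. Array signal, not read depth, limits precision here, together with the number of arrays. Gene names came from the platform annotation, in which 21640 probesets carry 1 symbol, 1321 several and 11799 none.

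All arrays were fitted with 4 group means in limma 3.58.1 (lmFit and eBayes, R 4.3.3, statmod 1.5.0), without a replicate block, with 1 spread for all groups. Tests were two-sided, and Benjamini-Hochberg adjustment ran over all probesets, with calls at an adjusted p under 0.05. The scripts were tested on simulated data. Alternatives were a replicate block, separate fits, leaving out dim probesets, or those without 1 symbol, a second quantile normalization, median centring, a trended and robust variance, array weights, fold limits of 1.5 and 2, the Y-linked level, the P5 replicate sets, the mean of a gene's probesets, and each array left out in turn. Figures were drawn with matplotlib 3.10.9. The genes, the further lists and the marker lists were chosen with earlier results of these data known. Every measured member is named. Full statistics go to those called (up to 12 per contrast), to the largest changes where none was called, and to paralog pairs. Of the further lists, up to 6 genes per contrast with the smallest adjusted p are eligible to be named.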

Additional observations from a re-analysis of the deposited data

Results flagged for a closer look

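Among 74 sets of 5 P5 arrays of one genotype tested for an array far from the others, 3 had one, where chance gives about 1 in 20. *Prph* on P5 WT replicate 1 was 5.81 on the log2 scale against 5.53 for the nearest WT array, a gap of 0.746 of the whole range. *Thy1* on P5 Tg replicate 1 was 8.03 against 7.65 (0.711 of the range). *Kif1a* on P5 Tg replicate 3 was 9.71 against 9.43 (0.756 of the range).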

How the results depend on the processing

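The direction and the number of genes passing between the ages were kept under every alternative run (within 1.5 times), and the median change in WT moved to 0.88 without the dimmest 50% of probesets and 0.89 with centred arrays, that in Tg to 1.29 with centred arrays and 0.89 with the mean of a gene's probesets. Centring moved the median of all probesets from -0.06 to 0.13 in WT and from -0.11 to 0.11 in Tg. The single genes that lost their call between the ages were *Prph* in WT and *Ina*, *Tubb3* and *Pcsk1n* in Tg. Leaving out each array in turn, 24 to 27 genes passed in WT (median 0.64 to 0.77) and 26 to 29 in Tg (median 0.97 to 1.16); 0 to 2 passed between genotypes at P5 (median -0.39 to -0.23), 0 at P18 (median -0.08 to -0.05) and 0 for the difference (median 0.13 to 0.27).

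At P5, 5 genes passed with array weights (*Nefm*, *Mapt*, *Syp*, *Slc17a6* and *Elavl3*; 4.93% of all probesets passed) and 1 within replicates 3 to 5 (0.693% of all). The P5 median was -0.013 within replicates 1 and 2 and -0.075 within the P5 arrays of high Y-linked signal, a split added after seeing the data. In those settings the median difference of the effects turned to -0.080 and -0.037. *Snap25* (0.047) and *Syn1* (0.056) turned within replicates 1 and 2, and *Snap25* (0.035), *Syt2* (0.016), *Elavl4* (0.19) and *Calb2* (0.045) within the arrays of high Y-linked signal. The causes were not tested.

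*Syt1* was the 1 gene passing at P18 with the replicate block (adjusted p = 0.044), separate fits, array weights and the P5 replicate set as a covariate, and the 1 gene passing for the difference with the replicate block (adjusted p = 0.039), array weights, that covariate and P5 replicates 3 to 5. With the replicate block, *Sv2c*, *Map6*, *Kif1a* and *Camk2b* no longer passed at P5 (adjusted p = 0.064 to 0.16). Replicate numbers did not mark a pairing throughout. The correlation of same-numbered WT and Tg deviations was 0.29, 0.36, -0.11, 0.20 and -0.22 at P5 and 0.07, 0.00 and 0.01 at P18. Tg arrays of P5 replicates 1 and 2 and of P18 replicate 1 correlated best with the WT array of their own number. The other Tg arrays correlated best with another number. Whether some numbers are pairs cannot be told from these values.

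With 3 to 5 arrays per group, standard errors between genotypes reached 0.22 at P5 and 0.28 at P18. Differences well above their standard error did not pass. Examples are -0.60 ± 0.18 for *Slc17a6* at P5 and -0.49 ± 0.13 for *Syt1* at P18. A gene that did not pass may therefore still differ by such an amount.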
